A study of Homo sapiens with 12 samples.

Results

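Forkhead genes other than FOXA1 were followed on 12 Illumina bead arrays of LNCaP, an androgen-responsive human prostate cancer line. A gene was a member if its platform symbol was FOX with a letter from A to S and a number, with at most a letter and digits after it; FOXA1 itself, antisense and other noncoding transcripts (FOXD2-AS1, FOXN3-AS1, FOXL3-OT1) and the neighbouring gene FOXL2NB were left out, which gave 46 members of 20044 genes, read by 79 probes. Of the arrays 6 are of LNCaP cells transfected with pcDNA3.1_FoxA1, a plasmid that carries the full-length FOXA1 cDNA (FoxA1 1 to 6); the other 6 arrays are of cells given pcDNA3.1_GFP (GFP 1 to 6), with both plasmids delivered by Lipofectamine2000 and all cells harvested 48 h later. Every cell carries its own FOXA1 genes in both groups, transfection was transient, the share of cells that took up plasmid is not stated, and nothing says whether the arrays of a group came from separate cultures, so the p-values below measure only the spread between these arrays, which may be technical.

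Forkhead proteins bind DNA through a winged-helix domain that all members share. FOXA proteins open compacted chromatin for other factors, and FOXA1 does so for the androgen receptor in prostate epithelium. FOXO proteins are held in the cytoplasm when AKT phosphorylates them. FOXM1 drives genes of the late cell cycle, and FOXK and FOXP proteins act mostly as repressors. Many other members act in particular tissues or cell types (FOXC2 in vessels, FOXE1 in the thyroid, FOXF1 in mesenchyme, FOXL2 in the ovary, FOXP3 in regulatory T cells).

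Values are normalized log2 intensities from the authors' deposited table, with the probe of highest mean taken for each gene; levels of different probes are not comparable, so each probe is set only against background. Background on an array was the 95th percentile of 784 extra probes that only the deposited non-normalized table holds, which fell at 7.62 to 7.70 on the normalized scale. Of an array's probes, 32.8% to 36.4% lay above it. What the extra probes are is not stated, and against their 99th percentile 0 members lay above background on all arrays. The share of all genes at that percentile is not given, and 11 of the extra probes averaged above 9. That count is therefore not a result about forkhead genes. In such bulk RNA, fewer cells that express a gene and less RNA per cell cannot be told apart. The labelled cell type showed in its markers: 13 of 13 measured luminal and LNCaP markers, among them KLK3, TMPRSS2 and FOLH1, were above background on all 12 arrays, against 0 of 9 basal markers, 2 of 13 stromal markers (ACTA2 and VIM), 1 of 9 endothelial markers (VWF), 1 of 13 leukocyte markers (CD68) and 1 of 11 ciliated cell markers (RSPH1). FOXA1, the gene on the plasmid, was read by 1 probe. It stood at 13.29, 13.41 and 13.62 (lowest, median, highest) on the FoxA1 arrays and at 13.01, 13.35 and 13.48 on the GFP arrays. The difference was 0.13 (95% interval -0.06 to 0.31, exact permutation p = 0.165, n = 6 against 6). The groups overlapped, so these arrays do not by themselves show FOXA1 overexpression. Probe sequences are not given, so whether this probe reads the FOXA1 transcript of the plasmid is unknown.

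Of the 46 members, 11 lay above background on all 12 arrays, or 23.9%, while 40.8% of all genes tested did so. They were the stress and metabolism factors FOXO1, FOXO3 and FOXO4, the cell cycle factor FOXM1, the repressor FOXK1, FOXJ2 and FOXJ3, FOXN2, the checkpoint-linked repressor FOXN3, and FOXD4 with its copy FOXD4L1. A further 13 members lay above background on some arrays: FOXP1 on 11, FOXD1 on 10, FOXK2 on 9, FOXP4 on 4, FOXL2 and FOXR1 on 3, and FOXB1, FOXD2, FOXD4L3, FOXD4L4, FOXE3, FOXI3 and FOXN4 on 1. On 0 of 12 arrays were the other 22 above it, with single values from 6.30 to 7.68. These include the FOXA paralogs FOXA2 and FOXA3, the mesenchymal factors FOXF1 and FOXF2, FOXC2, FOXQ1, FOXS1, the ciliogenesis factor FOXJ1, the T cell factor FOXP3 and the pluripotency and neural crest factor FOXD3; the rest are FOXB2, FOXD4L5, FOXD4L6, FOXE1, FOXH1, FOXI1, FOXI2, FOXL1, FOXN1, FOXO6, FOXP2 and FOXR2. By subfamily, 3 of 4 FOXO genes, 2 of 3 FOXJ genes, 2 of 4 FOXN genes and 2 of 9 FOXD genes were above background throughout, against 0 of 4 FOXP genes and 0 of 3 FOXI genes. FOXC2 and FOXL1, neighbours on chromosome 16 with no other protein-coding gene between them in RefSeq, were both below background on all arrays, and the neighbours FOXE3 and FOXD2 on chromosome 1 were each above it on 1 array.

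**Figure D1:**
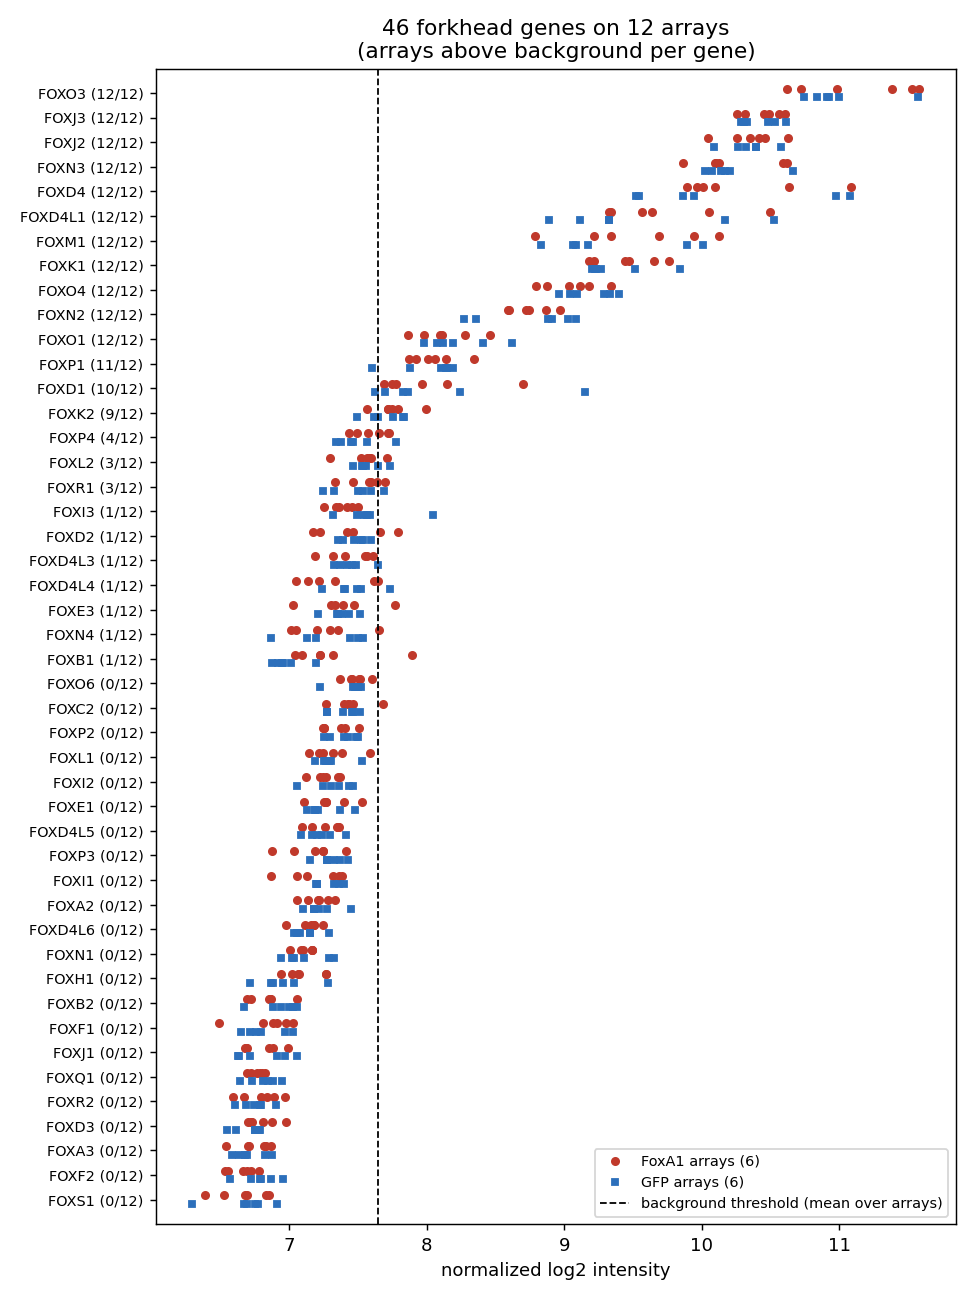
Normalized log2 intensity (x axis) of each of the 46 forkhead genes (rows, with the number of arrays above background in brackets); circles are the 6 FoxA1 arrays, squares the 6 GFP arrays, and the dashed line is the mean background threshold, 7.65. The 11 genes at the top lie to the right of it on all 12 arrays, and in each row the symbols of the groups intermingle.

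A probe at background does not show that a gene is silent, and the members with several probes illustrate it. FOXK1 had 5 probes: 1 was above background on 12 arrays and the other 4 on 2, 1, 0 and 0. For FOXO3, 2 of 4 probes were above on 12 arrays and the others on 1 and 0; for FOXN3 it was 1 of 3. Both FOXM1 probes, both FOXD4 probes and both FOXD4L1 probes were above background on all 12 arrays. For FOXP1, FOXK2 and FOXP4, read by 5, 3 and 2 probes, 0 probes reached 12 arrays.

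Expression of these genes did not differ between the groups beyond the spread of the arrays. In limma, fitted across all 20044 genes, 0 of 46 members passed an adjusted p of 0.05, as did 0% of all genes, and the adjusted p was 1.00 for every member. At an unadjusted p under 0.05 there was 1 member, FOXB1, against 2.53% of all genes. The groups did not overlap for 0 members, against 0.0998% of all genes. The mean was higher in the FoxA1 arrays for 25 members, against 52.8% of all genes, and lower for 21. The members' median log2 difference was 0.0129, and that of all genes was 0.00654. Of the 11 detected members 8 had the higher mean in the FoxA1 arrays. The 95% intervals bounded the differences: those of all 46 members lay within 2-fold in either direction, and those of 43 within 1.5-fold. Of the 11 detected members, 8 had intervals within 1.5-fold, and FOXD4, FOXD4L1 and FOXM1 did not. For members near background an interval bounds the signal of the probe, not the transcript's change.

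Among the FOXO genes, which switch on cell cycle arrest, antioxidant and apoptosis genes when AKT activity is low, FOXO3 had the widest spread. FOXO3 stood at 10.62, 11.18 and 11.58 (lowest, median, highest) on the FoxA1 arrays and at 10.74, 10.92 and 11.57 on the GFP arrays. The FoxA1 mean was 0.14 higher, standard error 0.17 (limma 95% interval 0.855-fold to 1.416-fold; exact permutation p = 0.515, n = 6 against 6). High values were shared: FoxA1 3, FoxA1 4, FoxA1 6 and GFP 3 all lay above 11.3. Its other detected probe gave 0.05 (standard error 0.14). A dim probe below background differed by 0.22 (standard error 0.08). FOXO1 read 7.86, 8.11 and 8.46 on the FoxA1 arrays and 7.98, 8.16 and 8.62 on the GFP arrays, differing by -0.10 (standard error 0.12, exact permutation p = 0.474, n = 6 against 6). FOXO4 read 8.80, 9.07 and 9.34 on the FoxA1 arrays and 8.96, 9.19 and 9.40 on the GFP arrays. Its difference of -0.13 (standard error 0.10) was the lowest among the 11 detected members (exact permutation p = 0.253, n = 6 against 6), and 2 of 6 FoxA1 arrays lay below every GFP array. FOXO6, a neural member, was not above background with its brightest probe.

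Upstream and downstream of the FOXO proteins, 0 listed genes passed the test in either direction. Of 27 measured regulators (the PI3K-AKT pathway, 14-3-3 proteins, ligases and deacetylases), the mean was higher in the FoxA1 arrays for 20 and lower for 7 (median 0.06), where 52.8% of all genes were higher; 1 had an unadjusted p under 0.05, against 2.53% of all genes. YWHAZ, a 14-3-3 protein that holds FOXO in the cytoplasm, stood at 13.31 ± 0.11 on the FoxA1 arrays and 13.03 ± 0.26 on the GFP arrays (SD, n = 6 each), a difference of 0.28 with an adjusted p of 1.00 in limma. MDM2, above background on 5 arrays, differed by 0.18, PRMT1 by -0.11 and SIRT2 by -0.07. Of 30 measured FOXO target genes, the mean was higher for 13 and lower for 17 (median -0.00834). The retinoblastoma relative RBL2 had 10.40 ± 0.26 on the FoxA1 arrays and 10.06 ± 0.20 on the GFP arrays (SD, n = 6 each, limma adjusted p = 1.00). PDK4, below background, differed by 0.14. The apoptosis genes BCL2L11, above background on 1 array, and BBC3, above it on 12, differed by -0.14 each.

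FOXM1, which activates genes for entry into and passage through mitosis, read 8.79, 9.52 and 10.12 on the FoxA1 arrays and 8.83, 9.13 and 10.01 on the GFP arrays. The FoxA1 mean was 0.18 higher, standard error 0.23 (limma 95% interval 0.809-fold to 1.575-fold; exact permutation p = 0.532, n = 6 against 6). Its second probe gave -0.06 (standard error 0.22). FoxA1 3, FoxA1 4, FoxA1 6, GFP 3 and GFP 6 read high with both probes, and FoxA1 5 was lowest with both. Of 30 FOXM1 target genes 21 had the higher mean in the FoxA1 arrays and 9 the lower (median 0.07; 52.8% of all genes were higher), 1 had an unadjusted p under 0.05 (2.53% of all genes), and 0 passed in either direction. The spindle checkpoint kinase BUB1B differed by 0.37 and NEK2 by 0.25, against -0.11 for CKS1B and -0.10 for PLK1 (each with a limma adjusted p of 1.00).

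**Figure D2:**
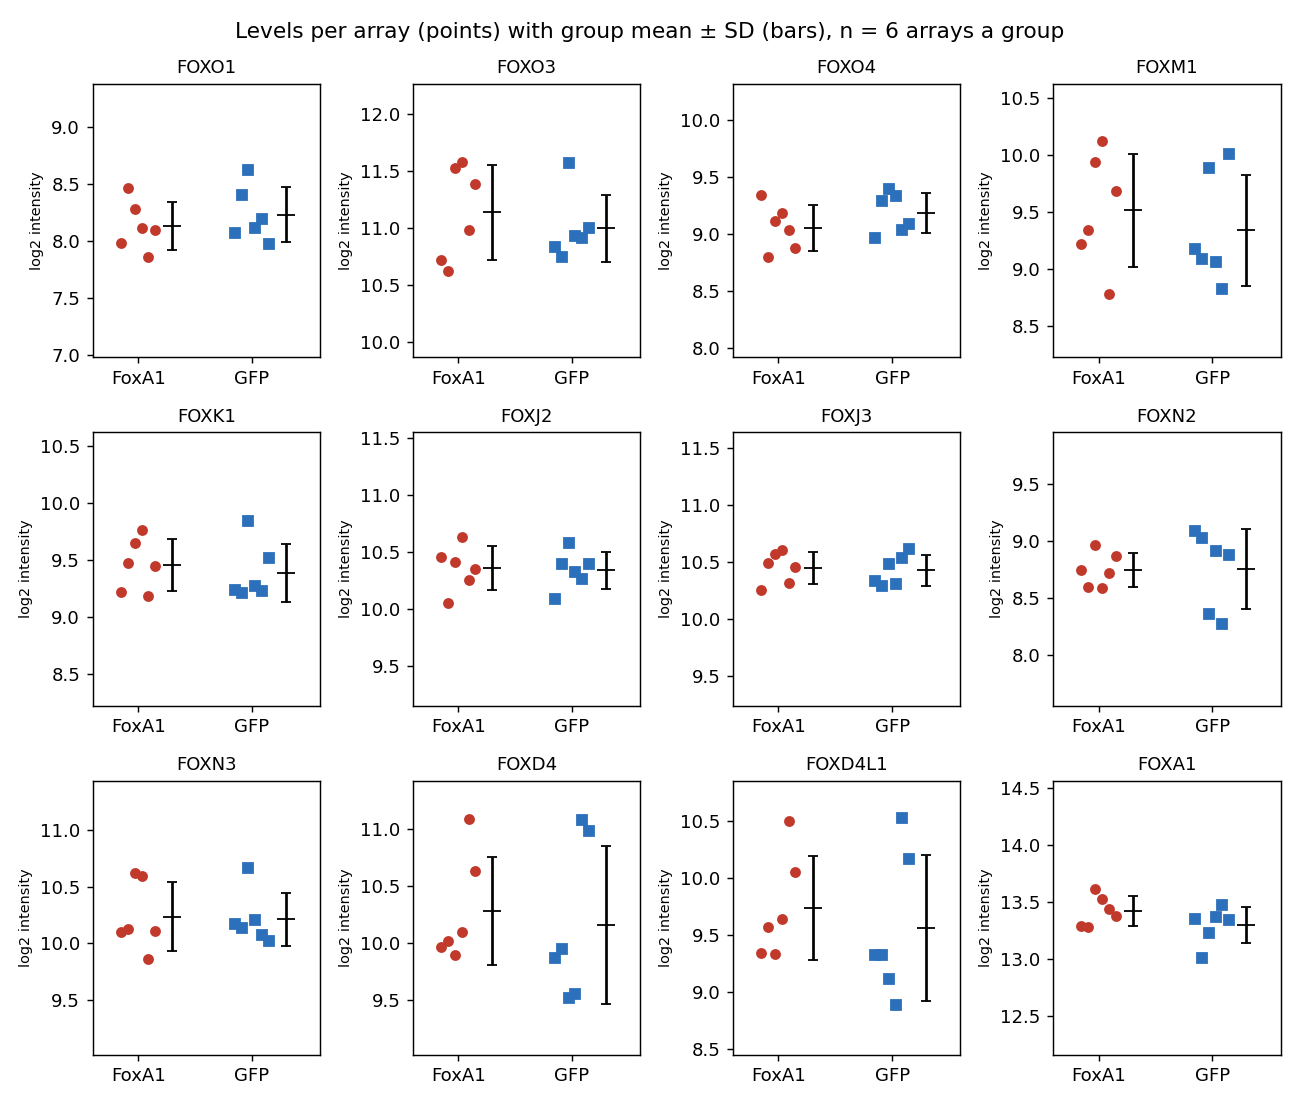
Normalized log2 intensity of the 11 forkhead genes above background on all arrays and of FOXA1, each on a y axis of equal length; points are single arrays (circles FoxA1, squares GFP, 6 each) and bars the group mean ± SD. Groups overlap in every panel, and the spread is widest for FOXD4, FOXD4L1 and FOXM1.

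FOXK1, which with FOXK2 recruits the SIN3A corepressor and the deubiquitinase BAP1, read 9.18, 9.46 and 9.76 on the FoxA1 arrays and 9.21, 9.25 and 9.84 on the GFP arrays (difference 0.07, standard error 0.12, exact permutation p = 0.623, n = 6 against 6). FOXK2 had 7.76 ± 0.14 on the FoxA1 arrays and 7.69 ± 0.13 on the GFP arrays (SD, n = 6 each); a second FOXK2 probe, below background on every array, differed by -0.25 (standard error 0.09). The FOXP family, repressors with a zinc finger that pair through a leucine zipper, was represented above background mainly by FOXP1, at 8.06 ± 0.17 on the FoxA1 arrays and 8.01 ± 0.23 on the GFP arrays (SD, n = 6 each). Of 20 measured partner genes of FOXK and FOXP proteins 17 had the higher mean in the FoxA1 arrays and 3 the lower (median 0.12); the share of all genes with the higher mean was 52.8%. In this list 4 genes had an unadjusted p under 0.05, against 2.53% of all genes, and 0 passed limma's adjusted threshold. Above background on all arrays were 16 of these genes, 22 FOXO regulators and 29 FOXM1 targets, where 40.8% of all genes were. The share with the higher mean among detected genes was not computed, so a lean particular to these lists is not shown. HCFC1, a chromatin adaptor, stood at 9.36 ± 0.10 on the FoxA1 arrays and 9.14 ± 0.11 on the GFP arrays (SD, n = 6 each), SUDS3, a SIN3 subunit detected on 3 arrays, differed by 0.26, SAP30 by -0.23 and KAT5 by -0.07 (limma adjusted p = 1.00 for each).

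FOXJ2 and FOXJ3, widely expressed relatives of FOXJ1, were the steadiest detected members. FOXJ3 read 10.25, 10.47 and 10.61 on the FoxA1 arrays and 10.28, 10.40 and 10.61 on the GFP arrays, so that the means differed by 0.02 (95% interval 0.896-fold to 1.152-fold; exact permutation p = 0.786, n = 6 against 6). FOXJ2 read 10.05, 10.38 and 10.63 on the FoxA1 arrays and 10.09, 10.36 and 10.58 on the GFP arrays, also differing by 0.02 (0.876-fold to 1.173-fold; exact permutation p = 0.842, n = 6 against 6). Neither gene separated the groups. FOXN3, tied to the DNA damage checkpoint, read 9.86, 10.12 and 10.62 on the FoxA1 arrays and 10.03, 10.15 and 10.67 on the GFP arrays (difference 0.02, 0.834-fold to 1.236-fold; exact permutation p = 0.922, n = 6 against 6). FOXN2 read 8.59, 8.73 and 8.97 on the FoxA1 arrays and 8.27, 8.90 and 9.09 on the GFP arrays (difference -0.00760, 0.817-fold to 1.211-fold; exact permutation p = 0.970, n = 6 against 6). GFP 3 and GFP 5 were its lowest arrays. The sign of these 4 small differences turned with single arrays left out, as given below.

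FOXD4 and FOXD4L1 belong to a set of closely related copies, of which 6 were measured; FOXD4L3, FOXD4L4, FOXD4L5 and FOXD4L6 read at background on at least 11 of 12 arrays. Probes can share signal between such copies, and the files do not give probe sequences, so the signal of FOXD4 and FOXD4L1 cannot be assigned to either gene with certainty. The RefSeq promoters of FOXD4, whose probe was bright, and FOXD4L6, whose probe was at background, are the FOXD4 pair that aligned over nearly the whole window. They are printed 5' to 3' over 250 bases before the annotated start (RefSeq, GRCh38.p14), with capitals at bases that differ or lie outside the alignment; 243 of 249 aligned bases (97.6%) were identical. The FOXD4 promoter did not align this far with the others. It aligned over 21 bases with that of FOXD4L1, the other bright copy, over 36 with FOXD4L3, 12 with FOXD4L4 and 11 with FOXD4L5. Among the other pairs, FOXD4L3 and FOXD4L4 aligned over 165 bases, all identical. The windows are placed by annotated starts, so a short alignment does not show that the copies diverged there.
FOXD4, chr9:118418-118667, - strand: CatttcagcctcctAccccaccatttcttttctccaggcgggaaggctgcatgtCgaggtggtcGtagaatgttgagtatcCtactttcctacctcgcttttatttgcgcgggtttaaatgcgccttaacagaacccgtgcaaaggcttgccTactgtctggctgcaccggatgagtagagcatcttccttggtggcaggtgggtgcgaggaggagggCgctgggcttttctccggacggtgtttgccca
FOXD4L6, chr9:41128682-41128931, - strand: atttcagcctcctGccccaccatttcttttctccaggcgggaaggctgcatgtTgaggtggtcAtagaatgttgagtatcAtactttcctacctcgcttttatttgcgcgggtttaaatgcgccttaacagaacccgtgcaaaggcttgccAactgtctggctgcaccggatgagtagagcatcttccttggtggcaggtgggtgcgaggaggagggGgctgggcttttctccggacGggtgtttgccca

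FOXD4 signal split the arrays by replicate number and not by plasmid. It read 9.90, 10.05 and 11.08 (lowest, median, highest) on the FoxA1 arrays and 9.52, 9.90 and 11.08 on the GFP arrays (difference 0.12, standard error 0.27, exact permutation p = 0.656, n = 6 against 6). FoxA1 5 and FoxA1 6 read 11.08 and 10.63, and GFP 5 and GFP 6 read 11.08 and 10.98, while the other 8 arrays lay between 9.52 and 10.09. FOXD4L1 read 9.33, 9.60 and 10.50 on the FoxA1 arrays and 8.89, 9.33 and 10.53 on the GFP arrays (difference 0.18, standard error 0.26, exact permutation p = 0.587, n = 6 against 6). The 4 arrays numbered 5 and 6 gave 10.06 to 10.53 for it, and the other 8 gave 8.89 to 9.64. Both second probes divided the arrays in the same way: that of FOXD4 read 8.83 to 9.16 on arrays 5 and 6 and 7.85 to 8.45 on the others, and that of FOXD4L1 read 9.79 to 10.65 and 8.70 to 9.51. The dimmer FOXD4L3 probe, below background on every array, also separated them, at 7.25 to 7.39 and 6.71 to 7.18, while the brighter one did not (7.37 to 7.65 and 7.19 to 7.61). The labels do not say what arrays of the same number share, this division was noticed after the values were seen, and it carries no test. The within-group SD of FOXD4 was 0.596, against a median of 0.195 for the 8177 genes above background on all arrays; 58 of those genes had a larger one.

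**Figure D3:**
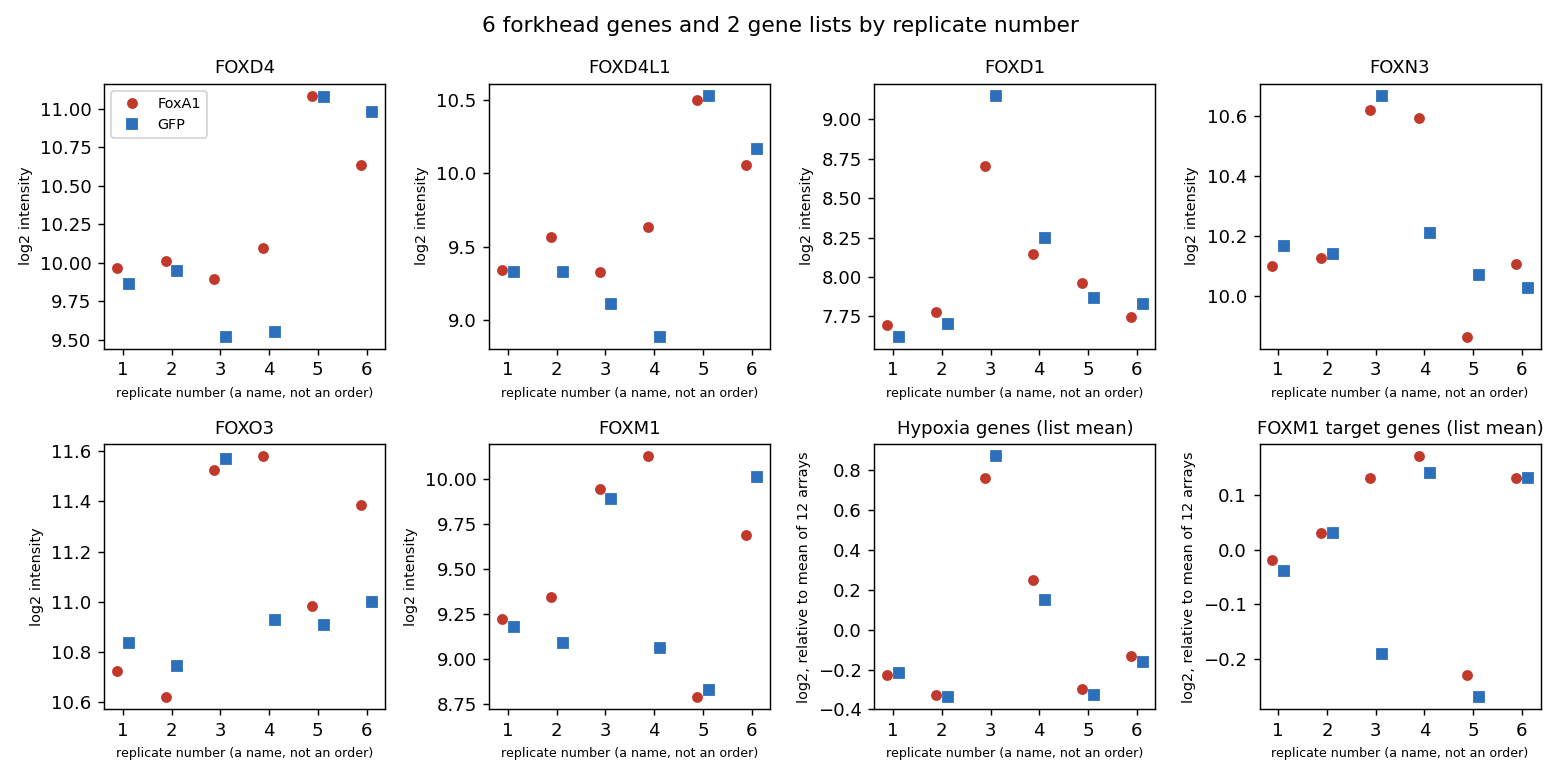
Normalized log2 intensity of FOXD4, FOXD4L1, FOXD1, FOXN3, FOXO3 and FOXM1, and the mean of the hypoxia and FOXM1 target lists relative to all 12 arrays, by replicate number (a name, not an order); circles are FoxA1 arrays and squares GFP arrays. FOXD4 and FOXD4L1 are high on arrays 5 and 6 of both groups, and FOXD1 on array 3 of both groups, where the hypoxia genes are high too.

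FOXD1, a factor of embryonic kidney stroma and retina, was high on the arrays numbered 3. It read 7.69, 7.87 and 8.70 on the FoxA1 arrays and 7.62, 7.85 and 9.15 on the GFP arrays, differing by -0.06 (standard error 0.22, exact permutation p = 0.805, n = 6 against 6). FoxA1 3 gave 8.70 and GFP 3 gave 9.15, the next were FoxA1 4 and GFP 4 with 8.15 and 8.24, and the remaining 8 lay below 8. FOXN3 was also highest on these arrays, with 10.62 on FoxA1 3 and 10.67 on GFP 3, followed by 10.59 on FoxA1 4, while the others did not exceed 10.21. FOXO3 gave 11.53 on FoxA1 3 and 11.57 on GFP 3, but 11.58 on FoxA1 4; its other detected probe, at 10.29 and 10.52, was highest on the arrays numbered 3 (at most 10.01 elsewhere). FOXK1 gave 9.65 on FoxA1 3 and 9.84 on GFP 3, with 9.76 on FoxA1 4. The mean of 19 hypoxia genes, relative to all arrays, stood at 0.76 on FoxA1 3 and 0.87 on GFP 3, then at 0.25 on FoxA1 4 and 0.15 on GFP 4, and between -0.34 and -0.13 on the other 8; its part in these forkhead values was not tested. The luminal marker list was highest on these arrays too, at 0.27 on FoxA1 3 and 0.25 on GFP 3, and its part was not tested either. In the median the hypoxia list differed between the groups by 0.00130, with 10 genes higher and 9 lower and 0 past the test. PDK1, below background, differed by 0.14, LDHA by 0.10, P4HA2 by -0.13 and ADM, above background on 5 arrays, by -0.12. The limma adjusted p was 1.00 for each of these genes.

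Promoters of the members that were high with the hypoxia genes, chosen after these values were seen, were searched for the core of the hypoxia response element, ACGTG or GCGTG on either strand. Of the members, 36 had a RefSeq promoter in the table used, FOXD1, FOXK1, FOXN3 and FOXO3 among them. The 250 bases before the most upstream start are printed 5' to 3' for those with a match (RefSeq, GRCh38.p14), with the matches in capitals; where matches overlap they form a single run.
FOXD1, chr5:73448778-73449027, - strand: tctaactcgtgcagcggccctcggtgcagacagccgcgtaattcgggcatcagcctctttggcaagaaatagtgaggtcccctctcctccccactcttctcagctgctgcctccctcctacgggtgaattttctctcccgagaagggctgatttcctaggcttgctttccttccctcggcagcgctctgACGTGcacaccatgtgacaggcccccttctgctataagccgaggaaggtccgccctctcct
FOXK1, chr7:4682045-4682294, + strand: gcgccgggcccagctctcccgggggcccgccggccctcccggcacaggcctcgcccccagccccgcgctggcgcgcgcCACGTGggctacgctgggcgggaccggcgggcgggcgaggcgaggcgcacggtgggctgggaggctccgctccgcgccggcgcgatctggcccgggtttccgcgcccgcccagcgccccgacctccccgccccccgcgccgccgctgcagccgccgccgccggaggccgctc
FOXO3, chr6:108559575-108559824, + strand: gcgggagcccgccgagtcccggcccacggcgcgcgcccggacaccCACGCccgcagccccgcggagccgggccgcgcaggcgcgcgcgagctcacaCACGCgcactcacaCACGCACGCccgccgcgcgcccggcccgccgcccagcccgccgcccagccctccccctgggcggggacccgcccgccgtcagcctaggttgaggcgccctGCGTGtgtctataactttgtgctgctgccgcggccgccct

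FOXD1 and FOXK1 held ACGTG, FOXO3 held GCGTG in 4 runs, and FOXN3 held neither. These letters are common: ACGTG was found in 20.9% of 15034 promoters of genes tested and GCGTG in 39.1%, against 22.2% and 38.9% of the 36 forkhead promoters. The share of all promoters with either core is at least 39.1% and was not computed. The matches in FOXD1, FOXK1 and FOXO3 therefore cannot be set against it. The forkhead motif TGTTTAC was found in 0 of the 36 promoters and in 2.25% of all, and its variant TGTTTGC in FOXD4, FOXD4L3 and FOXD4L6 (8.33%), which are copies of each other, and in 2.55% of all. A match is a description of the letters and not a site of binding. The median promoter of the 9 detected members in the table had 67.2% G and C, against 66.8% for the 27 other members and 62.4% over all genes tested.

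Whether a factor varied with its target list across the 12 arrays was asked of 4 factors. These permutation p-values treat the arrays as independent, but the lists also went by replicate number (the FOXO targets stood at 0.19 on FoxA1 3 and 0.18 on GFP 3, and at -0.12 on FoxA1 2 and -0.11 on GFP 2), so the p-values may be too small. After the group means were subtracted, FOXO3 and the mean of 30 FOXO target genes had Pearson's r of 0.812 (permutation p = 0.00102, adjusted over 4 factors 0.00408) and Spearman's rho of 0.846 (permutation p = 0.000790, adjusted 0.00316). Within the groups r was 0.766 on the FoxA1 arrays and 0.900 on the GFP arrays. Without GFP 3 and FoxA1 4, the arrays farthest from the median, it was 0.751 (permutation p = 0.0128), and without both arrays numbered 3 it was 0.653 and no longer passed (adjusted p = 0.0825 by permutation); this last setting was chosen after seeing the data. With only BNIP3 and MXI1, which hypoxia also induces, taken out of the list, r was 0.785 (adjusted p = 0.0106 by permutation). The other listed genes were not screened for a response to hypoxia, so this value cannot set hypoxia aside. The hypoxia genes stood highest on the arrays numbered 3, and their part in the relation was not tested. The luminal marker list also stood at 0.27 on FoxA1 3 and 0.25 on GFP 3, and at -0.11 on FoxA1 2 and -0.28 on GFP 2. No list other than the FOXO targets was correlated with FOXO3, so a relation particular to these targets is not shown. FOXM1 and its 30 target genes gave r = 0.548 (permutation p = 0.0661, adjusted 0.132) and rho = 0.573 (permutation p = 0.0560, adjusted 0.112), 0.951 on the FoxA1 arrays and 0.190 on the GFP arrays, and 0.376 without GFP 6 and FoxA1 4 (permutation p = 0.284). On GFP 3 FOXM1 was high, at 9.89, and its targets were low, at -0.19 relative to all arrays. Without both arrays numbered 3 r was 0.777 (adjusted p = 0.0441 by permutation). That setting was chosen after these values were seen, so its p-value does not count as a pass. FOXO1 gave r = 0.262 and rho = 0.0839 (permutation p = 0.410 and 0.801, adjusted 0.410 and 0.801), and 0.281 without FoxA1 2 and GFP 3. FOXO4 gave r = 0.367 and rho = 0.378 (permutation p = 0.241 and 0.228, adjusted 0.321 and 0.303), and -0.0761 without those 2 arrays (permutation p = 0.837); neither factor passed.

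**Figure D4:**
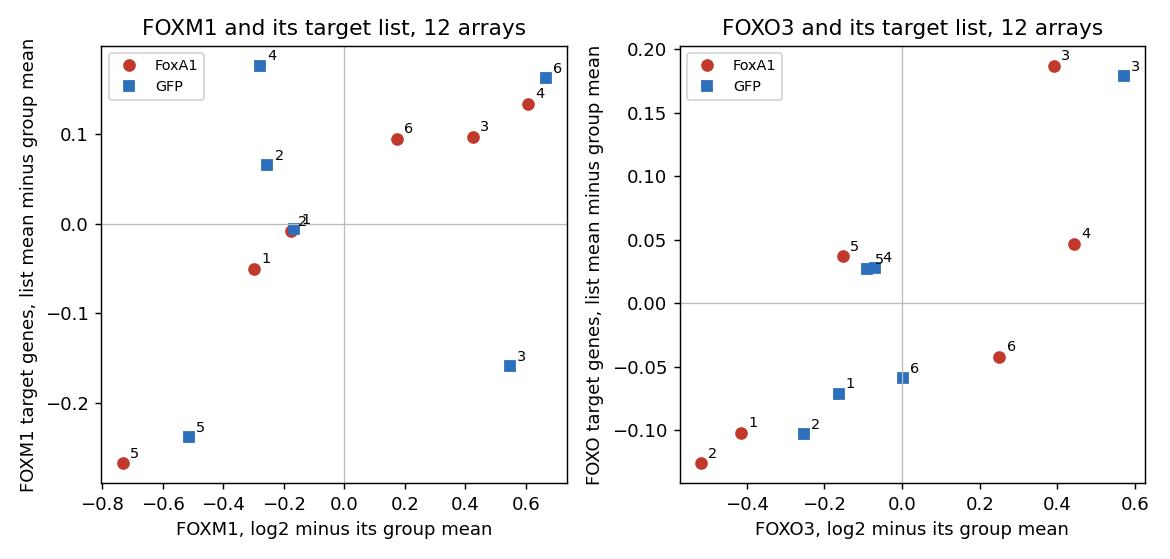
FOXM1 (left) and FOXO3 (right), x axis, against the mean of their target lists, y axis, both in normalized log2 intensity minus the group mean; circles are FoxA1 arrays and squares GFP arrays, labelled by replicate number. FOXO3 and its list correlate over the arrays (r = 0.812, or 0.653 without both arrays numbered 3). They deviate in the same direction on 7 of the 12 arrays. No other gene list was correlated with FOXO3. For FOXM1, GFP 3 lies apart from the other arrays.

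Among the 35 members not detected on all arrays, the smallest p-values belonged to probes near background. FOXB1, a factor of the developing brain, read 7.04, 7.23 and 7.89 on the FoxA1 arrays and 6.88, 6.95 and 7.20 on the GFP arrays. Its difference of 0.31 (standard error 0.12) had the lowest p of any member (exact permutation p = 0.0130, n = 6 against 6; adjusted p = 1.00 in limma), and 4 of 6 FoxA1 arrays lay above every GFP array. Its other probe differed by -0.00400 (standard error 0.08), and FoxA1 4 was the single array above background. FOXI3, a factor of ectodermal placodes, read 7.26, 7.39 and 7.50 on the FoxA1 arrays and 7.32, 7.56 and 8.05 on the GFP arrays, differing by -0.20 (standard error 0.10, exact permutation p = 0.0498, n = 6 against 6; adjusted p = 1.00 in limma); it was above background on GFP 2 alone. FOXH1, a partner of SMAD proteins in nodal signalling, differed by 0.15 and FOXD3 by 0.10, FOXP3 by -0.14 and FOXF2 by -0.13, all below background on 12 arrays. The 22 members whose brightest probe was below background on every array (a dimmer FOXO6 probe was above it on 1) split into 11 higher and 11 lower.

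**Figure D5:**
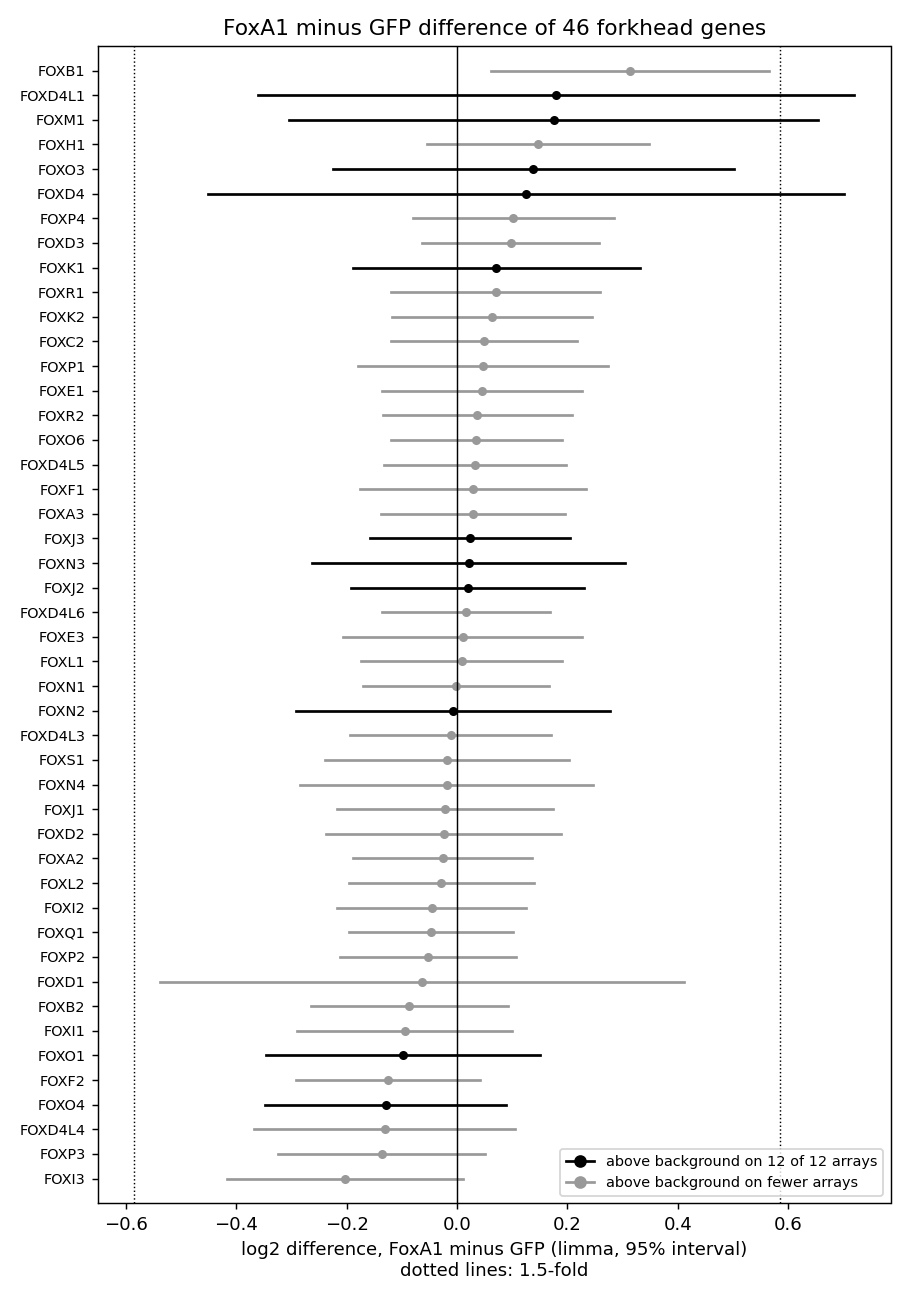
Log2 difference, FoxA1 minus GFP, with its 95% interval from limma (x axis) for each of the 46 forkhead genes (rows); black marks genes above background on all 12 arrays, grey the others, and dotted lines mark 1.5-fold. Intervals of 43 genes, among them 8 of the 11 marked black, lie inside the dotted lines. The widest belong to FOXD4, FOXD4L1, FOXM1 and FOXD1.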

How the data were processed

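RNA of 12 samples (6 FoxA1, 6 GFP, grouped by title) was hybridised to Illumina bead arrays. The authors deposited 2 tables of log2 intensity, with no detection p-values: a table of 48107 probes, non-normalized per the file headers, and a normalized table of 47323 probes with the same rank order in each array. Which programs and background correction were used is not stated. Non-normalized medians ran from 7.31 to 7.63.

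Probes were named from the platform annotation (30113 with 1 symbol, 8 with several, 17202 unlisted); of all these, 6 probes with missing values were dropped. The probe of highest mean over all arrays stood for a gene, with no filter on dim probes. The groups' difference came from limma 3.58.1 under R 4.3.3 (lmFit, eBayes, two-sided, Benjamini-Hochberg over 20044 genes, no covariate); the fit was tested on simulated data. Single values were tested by exact permutation over 924 arrangements, two-sided (smallest p 0.00216), without adjustment, and correlations by 100000 permutations. Precision is limited by the number of arrays. The hypoxia, target and partner lists, the marker lists and the members were chosen with earlier results of these data known. All members are reported; those above background on all arrays were named one by one, with 3 others each way by smallest p, and 2 genes each way from each target, regulator, partner and hypoxia list. Alternatives covered normalization, filter, probe choice, variance trend, array weights, a replicate block and each array left out. Same-numbered arrays had residual correlations from -0.210 to 0.493, above 0.1 for 5 of 6 pairs. Pairing was accepted only where every pair exceeded 0.1 and the labels do not state it, so the replicate block was kept as an alternative, although most pairs deviated together. Where arrays are named by number as standing apart, that was seen in the data.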

Additional observations from a re-analysis of the deposited data

Results flagged for a closer look

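In 64 groups of 6 arrays that were examined for a single array far from the rest, 4 were picked out, where chance gives about 1 in 20. On GFP 3, FOXN3 stood at 10.67, with the other GFP arrays between 10.03 and 10.21. FOXO3 on the same array stood at 11.57, with the others between 10.74 and 11; hypoxia genes were highest on that array too (0.87), and their part was not tested. FOXB1 on FoxA1 4 stood at 7.89, with the other FoxA1 arrays between 7.04 and 7.32. FOXI3 on GFP 2 stood at 8.05, with the other GFP arrays between 7.32 and 7.59.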

How the results depend on the processing

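Under every planned normalization, filter, probe rule, variance model, replicate block and single array left out, 0 members and 0 genes passed limma's adjusted p of 0.05 (508 genes under an unadjusted 0.05, and 659 with a replicate block). The block left FOXA1 at 0.127 (standard error 0.0850), FOXD4 at 0.125 (standard error 0.104 in place of 0.273) and FOXD1 at -0.0640 (0.0880 in place of 0.225), and changed no adjusted call; under an unadjusted 0.05 it gave 2 members (FOXB1 and FOXI3) in place of 1; 3 of 12 arrays correlated best with the array of their own number. With arrays left out singly, the members' median ran from -0.00675 (without FoxA1 3) to 0.0242 (without GFP 3), and the number of members higher from 22 to 29. With the filter at the median of all probes 14 of 22 remaining members were higher, against 25 of 46 without it. The share of all genes with the higher mean after this filter is not given. Signs turned for FOXN2 with median centring (0.0474), for FOXN3 (-0.0223), FOXP1 (-0.0142) and FOXK2 (-0.0603) with a mean over probes, and for FOXD1 without both arrays numbered 3 (0.0131); the cause was not tested. Leaving out single arrays moved FOXD4 from -0.0363 (without FoxA1 5) to 0.309 (without GFP 5), FOXJ2 from -0.0344 to 0.0814, FOXJ3 from -0.00930 to 0.0613, FOXN2 from -0.105 to 0.0590, FOXN3 from -0.0556 (without FoxA1 3) to 0.112 (without GFP 3), FOXP1 from -0.0339 to 0.0843 and FOXD1 from -0.203 (without FoxA1 3) to 0.152 (without GFP 3). Without a sign change, the range was 0.0538 to 0.321 for FOXM1, 0.0278 to 0.374 for FOXD4L1, 0.0491 to 0.252 for FOXO3, 0.00945 to 0.163 for FOXK1, -0.165 to -0.0209 for FOXO1, 0.194 (without FoxA1 4) to 0.365 for FOXB1 and -0.258 to -0.112 (without GFP 2) for FOXI3. Against the 99th percentile or the highest of the extra probes, 0 members were above background on all arrays; 11 of the extra probes averaged above 9, so those thresholds rest on them. A mean over arrays gave 14 members and any probe of a gene 11. The share of all genes is not given for these other rules. The setting without both arrays numbered 3 was chosen after the values were seen. In it the correlation with the target list was 0.653 for FOXO3 (adjusted p = 0.0825 by permutation), 0.777 for FOXM1 (0.0441) and -0.467 for FOXO1 (0.238).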
